A study of Mus musculus with 8 samples.

Results

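The transcripts described here encode the growth factors, chemokine and inhibin subunits that the somatic cells of the testis supply to the germ cells and to each other. They were *Gdnf*, *Kitl*, *Cxcl12*, *Csf1*, *Fgf2*, *Bmp4*, *Dhh* and the inhibin subunit genes *Inha*, *Inhba* and *Inhbb*, chosen by gene name. These 10 were among 54532 genes measured by bulk RNA-seq in whole testes of 4 control and 4 *Sync-Spdya* cKO mice. No member passed the test for a difference between the groups. *Csf1* was the 1 member of 10 whose groups did not overlap, at 1.10 ± 0.185 FPKM in the controls and 1.87 ± 0.388 FPKM in the cKO libraries (SD, n = 4 each). Among all protein-coding genes with a mean above 0.1 FPKM, 6.32% had groups that did not overlap. FPKM divides a gene's fragments by its length and by a scaled library size, so levels of different genes can be compared.

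The control mice were *Spdya* fl/fl without Cre, and the cKO mice were *Spdya* fl/fl;*Ddx4-CreERT2*. *Ddx4* is expressed in germ cells, and tamoxifen lets the CreERT2 enzyme remove the floxed exon of *Spdya*, which encodes an activator of CDK2. All mice were juveniles of the C57BL/6J background. All received an inhibitor of retinoic acid synthesis and then retinoic acid (RA), which restarts spermatogenesis in synchrony. Both groups were given tamoxifen, at RA7.5 and RA8.5 by the labels, and testes were taken at RA11.5, that is 11.5 days after RA. The presence of Cre and the loss of the exon came together and cannot be told apart. The genes described here are expressed mainly in somatic cells, while the deletion was made in germ cells.

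Sertoli cells secrete GDNF, which acts through the GFRA1 and RET receptors on undifferentiated spermatogonia and keeps them self-renewing. They also make KITL, the ligand of the KIT receptor on differentiating spermatogonia, and CXCL12, a chemokine whose receptor CXCR4 holds stem cells in the niche. Inhibin is a dimer of an alpha subunit with a beta subunit that lowers FSH from the pituitary, and 2 beta subunits form activin. DHH from Sertoli cells binds PTCH1 on Leydig and peritubular cells, CSF1 maintains macrophages through CSF1R, and FGF2 and BMP4 signal through the FGF and BMP receptors.

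The libraries held 13978342 to 19583091 fragments on genes. Markers of Sertoli cells and of pachytene spermatocytes were present in every library, and of the 6 spermatid markers only *Spaca1* was above 0 in all 8 libraries. Transcripts of the mitochondrial genome took 0.464% of fragments in control replicate 1 and 2.20 to 3.74% in the other libraries. *Spdya* itself was at 19.7 to 23.8 FPKM in the controls and 17.7 to 30.5 FPKM in the cKO libraries (log2 fold change 0.15, limma adjusted p = 0.787), so its level over the whole gene gave no check of the labels. Markers of several somatic cell types were higher on average in the cKO libraries, with overlap between the groups in all lists but that of macrophages. The mean log2 level of the markers of interstitial mesenchyme differed by 0.66 between the groups (cKO minus control), that of Leydig markers by 0.66, of macrophage markers by 0.58 and of endothelial markers by 0.46. The Sertoli markers differed by 0.15. The pachytene markers differed by -0.22, with 1 of 8 above 0, 2 lower and 1 higher at an unadjusted p below 0.05, and a mean log2 level of 4.55 to 4.90 in the controls and 4.36 to 4.93 in the cKO libraries. In whole testis, fewer cells of a type and less RNA per cell cannot be told apart.

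The test of all genes was limma on log2(FPKM + 0.1), and a gene was called when its Benjamini-Hochberg adjusted p was below 0.05 and its log2 fold change beyond 1 in either direction. It was run on 12141 protein-coding genes whose mean was above 1 FPKM in both groups, which included 7 members. *Bmp4*, *Fgf2* and *Inhba* lay below that filter and were taken from a wider fit, on 15937 protein-coding genes whose mean over all libraries was above 0.1 FPKM, which included all 10 members. A fold change on this scale understates that of genes with low FPKM.

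The members spanned a wide range of abundance, and the inhibin alpha subunit was far above the rest. *Inha* averaged 216.3 FPKM over the 8 libraries and stood at percentile 99.7 of the protein-coding genes. *Inhbb* followed at 37.7 FPKM, *Kitl* at 24.7 FPKM and *Dhh* at 11.6 FPKM, and the values of each of these genes lay wholly apart from those of its neighbours. *Cxcl12* (2.67 FPKM), *Gdnf* (2.29 FPKM), *Csf1* (1.48 FPKM), *Bmp4* (1.16 FPKM) and *Fgf2* (0.966 FPKM) formed a lower group whose neighbours overlapped. *Cxcl12* was above *Gdnf* in 6 of 8 libraries and *Bmp4* above *Fgf2* in 6 of 8. *Gdnf* was above *Csf1* in 8 of 8 libraries, and *Csf1* above *Bmp4* in 7 of 8. *Inhba* was lowest, at 0.210 FPKM and percentile 32.6, below *Fgf2* in every library. The plot of FPKM by library shows each of these values.

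**Figure D1:**
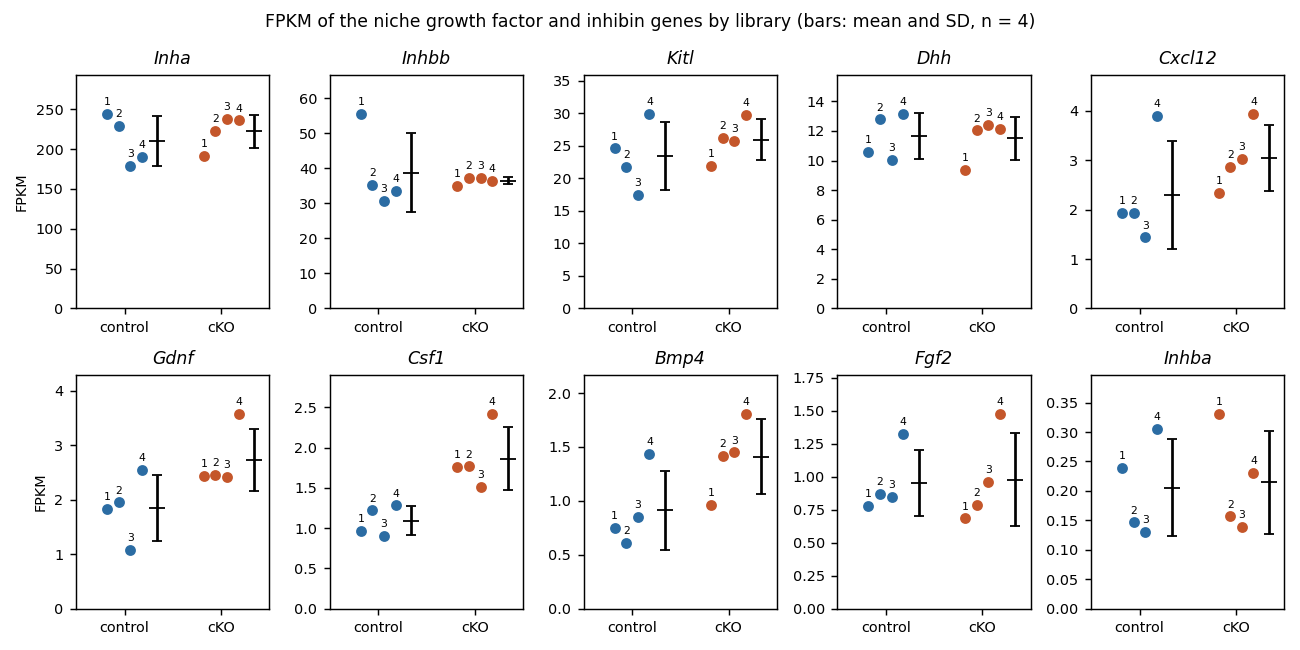
FPKM of the 10 genes in each library, with 1 panel per gene, ordered by mean level. Points are libraries labelled with their replicate number (control left, cKO right), and the bars beside them give the mean and SD of 4 libraries. The y axes start at 0 and differ between panels; *Csf1* alone has all 4 cKO points above all 4 control points.

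*Csf1* (ENSMUSG00000014599, chromosome 3 of GRCm38, 107741048 to 107760469, minus strand) encodes the growth factor of the monocyte and macrophage lineage. It had 0.968, 1.22, 0.909 and 1.28 FPKM in control replicates 1 to 4. In cKO replicates 1 to 4 it had 1.76, 1.77, 1.52 and 2.42 FPKM, so the lowest cKO library lay above the highest control library. Its log2 fold change was 0.71 (SE 0.19, 95% interval 0.29 to 1.14, unadjusted p = 0.00398, limma adjusted p = 0.229). The exact permutation test of this gene alone gave the smallest two-sided p that 4 libraries against 4 allow (p = 0.0286). Among all genes of that fit, 6.24% had groups that did not overlap. In the 8 fits that each omitted 1 library the log2 fold change ranged from 0.58 to 0.80, and the unadjusted p stayed below 0.05 in each of them. These levels rest on 67 to 217 fragments per library.

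The receptor of CSF1 showed the same order of the groups. *Csf1r*, which marks macrophages and their precursors, had 1.25, 1.68, 1.18 and 2.41 FPKM in the controls and 2.50, 2.49, 2.54 and 3.13 FPKM in the cKO libraries. Its log2 fold change was 0.72 (95% interval 0.24 to 1.21, limma adjusted p = 0.278), without overlap. *Il34*, the other ligand of this receptor, was at 0.485 ± 0.205 and 0.623 ± 0.117 FPKM (SD, n = 4 each; log2 fold change 0.36, limma adjusted p = 0.683). The macrophage markers lay in the same direction in 6 of 6 genes, 4 of them at an unadjusted p below 0.05 and none called. Their mean log2 level was 1.41 to 2.27 in the controls and 2.38 to 2.67 in the cKO libraries, and their summed level 19.0 to 34.4 and 37.4 to 49.6 FPKM. No macrophage marker was at 0 in any library. Relative to the mean of these markers in the same library, the *Csf1* difference was 0.13, and the groups overlapped. Relative to the mesenchyme markers it was 0.05, to the Leydig markers 0.05, to the endothelial markers 0.25 and to the peritubular markers 0.50, again with overlap. Relative to the Sertoli markers it was 0.56 and the groups did not overlap. The part of these cell types in the *Csf1* difference was not tested.

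*Gdnf* (ENSMUSG00000022144, chromosome 15, 7810846 to 7837575, plus strand) is the niche factor of the spermatogonial stem cell. Its values were 1.83, 1.95, 1.08 and 2.54 FPKM in the controls and 2.44, 2.45, 2.42 and 3.57 FPKM in the cKO libraries. The cKO values were close together apart from replicate 4, and control replicate 4 lay above cKO replicates 1 to 3. The log2 fold change was 0.57 (SE 0.24, 95% interval 0.03 to 1.12, unadjusted p = 0.0409, limma adjusted p = 0.445), and the exact permutation test gave p = 0.114. The value was 0.35 when control replicate 3 was left out, 0.44 without cKO replicate 4, 0.74 without control replicate 4 and 0.59 to 0.62 in the other 5 fits that left out a library. The unadjusted p was below 0.05 in 1 of these 8 fits. The depth was 62 to 223 fragments per library. Relative to the Sertoli markers the difference was 0.42, to the peritubular markers 0.36, to the endothelial markers 0.11, to the macrophage markers -0.01, to the mesenchyme markers -0.09 and to the Leydig markers -0.09, each with overlap.

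The receptors of GDNF differed by less. *Gfra1*, its binding receptor, was at 1.58 ± 0.223 and 1.97 ± 0.220 FPKM (SD, n = 4 each; log2 fold change 0.31, 95% interval -0.04 to 0.65, limma adjusted p = 0.524). *Ret*, the signalling receptor, was at 5.79 ± 0.484 and 6.28 ± 1.17 FPKM (log2 fold change 0.10, limma adjusted p = 0.849). Of the transcription factor genes that GDNF induces in cultured spermatogonial stem cells, *Etv5* and *Lhx1* had groups that did not overlap. *Etv5*, which is also expressed in Sertoli cells, had 3.94, 3.12, 2.70 and 5.76 FPKM in the controls and 6.70, 6.21, 5.80 and 7.18 FPKM in the cKO libraries. Its log2 fold change was 0.78 (95% interval 0.31 to 1.24, limma adjusted p = 0.219). Control replicate 4, at 5.76 FPKM, fell just short of cKO replicate 3, at 5.80 FPKM. *Lhx1* was low, at 0.239 ± 0.0530 and 0.383 ± 0.0523 FPKM (log2 fold change 0.52, limma adjusted p = 0.419). *Bcl6b* and *Pou3f1*, from the same group of GDNF-responsive genes, had log2 fold changes of -0.08 and 0.04. The spermatogonial markers had a mean log2 level of 3.23 to 3.46 in the controls and 3.00 to 3.35 in the cKO libraries. Of these 10 markers 3 had an unadjusted p below 0.05, against 11.1% of all genes, and none was called. *Stra8* was lower (log2 fold change -1.46), and *Dmrtb1* (0.51) and *Sohlh2* (0.42) were higher, each with overlap. The related ligands *Nrtn* and *Artn*, of the same family as GDNF, had log2 fold changes of -0.04 and 0.00, and *Nrtn* was at 24.4 FPKM in control replicate 1 against 2.98 to 7.36 FPKM in the other 7 libraries.

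*Bmp4* (ENSMUSG00000021835, chromosome 14, 46383520 to 46390669, minus strand), a BMP ligand that can induce germ cell differentiation, lay below the filter of the main fit. It had 0.747, 0.613, 0.854 and 1.44 FPKM in the controls and 0.964, 1.42, 1.45 and 1.81 FPKM in the cKO libraries, on 22 to 69 fragments. Control replicate 4 lay among the cKO values and cKO replicate 1 among the control values. In the wider fit its log2 fold change was 0.61 (SE 0.27, 95% interval 0.02 to 1.20, unadjusted p = 0.0447, limma adjusted p = 0.444). With 1 library left out it ranged from 0.46 without control replicate 2 to 0.83 without control replicate 4, and the unadjusted p was below 0.05 in 2 of the 8 fits. Relative to the Sertoli markers the difference was 0.46, to the peritubular markers 0.40, to the endothelial markers 0.15, to the macrophage markers 0.03, to the mesenchyme markers -0.05 and to the Leydig markers -0.06, each with overlap.

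Among BMP partners, *Id3*, a transcriptional target of BMP signalling, was at 7.25 ± 0.978 and 10.7 ± 2.22 FPKM (SD, n = 4 each). Its groups did not overlap (log2 fold change 0.54, 95% interval 0.20 to 0.89, limma adjusted p = 0.264). *Id1* and *Id2*, targets of the same pathway, had log2 fold changes of 0.19 and 0.15. The ligand *Bmp7* was at 3.16 ± 0.491 and 4.09 ± 0.545 FPKM (log2 fold change 0.37, limma adjusted p = 0.414), and *Bmp2* was at 0.554 ± 0.286 and 0.871 ± 0.329 FPKM (log2 fold change 0.60, limma adjusted p = 0.562). The type I receptor *Bmpr1a* was the most abundant of all receptors listed in the cKO libraries, at 16.1 ± 2.10 and 17.4 ± 0.592 FPKM, with a log2 fold change of 0.12. The antagonists *Nog* and *Grem1* were at or near 0 and were not tested.

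*Csf1*, *Gdnf* and *Bmp4* were the members with an unadjusted p below 0.05, and the sequence upstream of their transcription starts is therefore shown. The 250 bases before the RefSeq start on GRCm38.p6 are given 5′ to 3′ on the strand of the gene, for chr3:107760470-107760719 (*Csf1*, minus), chr15:7809798-7810047 (*Gdnf*, plus, the first of its starts, which lies upstream of the gene start in the deposited table) and chr14:46390670-46390919 (*Bmp4*, minus). Capitals mark matches to the motifs searched on both strands.
Csf1: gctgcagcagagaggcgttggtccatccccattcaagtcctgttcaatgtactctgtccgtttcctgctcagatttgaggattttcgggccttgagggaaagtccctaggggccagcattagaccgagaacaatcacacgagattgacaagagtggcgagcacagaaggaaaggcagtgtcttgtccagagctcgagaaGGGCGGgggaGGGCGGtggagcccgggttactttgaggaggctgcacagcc
Gdnf: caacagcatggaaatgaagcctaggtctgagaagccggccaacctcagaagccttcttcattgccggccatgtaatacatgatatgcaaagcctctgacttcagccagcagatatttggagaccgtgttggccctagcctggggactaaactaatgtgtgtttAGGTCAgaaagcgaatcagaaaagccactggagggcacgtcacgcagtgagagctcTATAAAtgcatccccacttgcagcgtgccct
Bmp4: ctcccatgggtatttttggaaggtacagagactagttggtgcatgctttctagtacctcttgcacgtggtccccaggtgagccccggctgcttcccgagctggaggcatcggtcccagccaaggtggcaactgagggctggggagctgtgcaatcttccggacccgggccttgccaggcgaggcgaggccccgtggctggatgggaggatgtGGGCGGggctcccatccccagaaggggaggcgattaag
The motifs were TGACGTCA (the cAMP response element), TGCGTCA (a variant of it), TATAAA (the TATA box), GGGCGG (the GC box of Sp1) and AGGTCA (a nuclear receptor half-site), and none of these overlap each other in the lines above. The *Csf1* sequence had GGGCGG with its first base at positions -51 and -41 from the start, and *Bmp4* had it at -38. *Gdnf* had TATAAA at -31 and AGGTCA at -87 and no GGGCGG. In windows that also took in the 50 bases after the start (300 bases), GGGCGG was found in 7 of the 10 members and in 35.7% of 32851 RefSeq promoters. TATAAA was in 3 members (*Gdnf*, *Inhba*, *Kitl*) and in 13.6% of promoters, AGGTCA in 2 members (*Gdnf*, *Inha*) and in 16.3%. TGCGTCA was in *Fgf2* and in 2.12% of promoters, and TGACGTCA in 0 members and in 1.79%. The window of *Inha* (chr1:75507359-75507658) lay wholly inside the gene as deposited, which starts at 75507077. That of *Fgf2* (chr3:37348403-37348702) also lay inside its gene, which starts at 37348346, as did most of the *Kitl* window. The matches in *Inha* and *Fgf2*, and those in *Kitl*, which fall in the part inside the gene, are therefore not upstream of the deposited gene start. A match describes the letters and not a bound site.

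*Cxcl12* (ENSMUSG00000061353, chromosome 6, 117168535 to 117181367, plus strand) had 1.94, 1.93, 1.44 and 3.90 FPKM in the controls and 2.33, 2.87, 3.03 and 3.95 FPKM in the cKO libraries. In both groups replicate 4 was highest, and control replicate 4 lay above cKO replicates 1 to 3. The log2 fold change was 0.46 (SE 0.28, 95% interval -0.16 to 1.08, limma adjusted p = 0.604). It moved from 0.28 without control replicate 3 to 0.74 without control replicate 4. The receptor *Cxcr4* was at 1.94 ± 0.562 and 2.00 ± 0.473 FPKM (SD, n = 4 each; log2 fold change 0.06, 95% interval -0.49 to 0.61, limma adjusted p = 0.953). *Ackr3*, the scavenger receptor of CXCL12, had 5.65, 6.14, 9.76 and 5.74 FPKM in the controls and 4.58, 4.51, 5.72 and 5.28 FPKM in the cKO libraries. Its log2 fold change was -0.40 (limma adjusted p = 0.449), with overlap.

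*Kitl* (ENSMUSG00000019966, chromosome 10, 100015630 to 100100416, plus strand) had 24.6, 21.8, 17.5 and 29.9 FPKM in the controls. In the cKO libraries it had 22.0, 26.2, 25.8 and 29.7 FPKM, all within the range of the controls. The log2 fold change was 0.16 (SE 0.16, 95% interval -0.20 to 0.53, limma adjusted p = 0.779). Its receptor *Kit* was at 9.32 ± 0.724 and 9.62 ± 1.08 FPKM (SD, n = 4 each; log2 fold change 0.04, 95% interval -0.21 to 0.29).

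*Fgf2* (ENSMUSG00000037225, chromosome 3, 37348346 to 37410108, plus strand), which supports spermatogonial stem cells together with GDNF, had 0.776, 0.870, 0.849 and 1.32 FPKM in the controls and 0.684, 0.785, 0.962 and 1.48 FPKM in the cKO libraries. The cKO group held both the lowest and the highest value. In the wider fit the log2 fold change was 0.00 (SE 0.25, 95% interval -0.56 to 0.57, limma adjusted p = 0.997). Of its receptors *Fgfr1*, the most abundant, was at 4.71 ± 0.699 and 5.14 ± 0.482 FPKM (SD, n = 4 each; log2 fold change 0.13). *Fgfr4* was low in all libraries, at 0.159 ± 0.0636 and 0.392 ± 0.108 FPKM, and its groups did not overlap (log2 fold change 0.93, 95% interval 0.34 to 1.53, limma adjusted p = 0.260). *Spry4* and *Spry1*, feedback inhibitors of receptor tyrosine kinases, had log2 fold changes of 0.52 and 0.42 (limma adjusted p = 0.435 and 0.478), and *Spry2* one of 0.06. *Etv4*, a target of FGF signalling, was at 0.888 ± 0.151 and 1.22 ± 0.156 FPKM without overlap (log2 fold change 0.42, limma adjusted p = 0.431).

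The inhibin subunits all had log2 fold changes within 0.1 of 0. *Inha* (ENSMUSG00000032968, chromosome 1, 75507077 to 75510366, plus strand), the alpha subunit, had 244.6, 228.7, 178.5 and 190.1 FPKM in the controls and 191.7, 223.3, 237.4 and 236.0 FPKM in the cKO libraries. All cKO values lay within the range of the controls. The log2 fold change was 0.08 (SE 0.15, 95% interval -0.25 to 0.42, limma adjusted p = 0.876), on 4116 to 6115 fragments per library.

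*Inhbb* (ENSMUSG00000037035, chromosome 1, 119415465 to 119422248, minus strand), the beta B subunit, had 55.7, 35.2, 30.7 and 33.6 FPKM in the controls and 35.0, 37.3, 37.3 and 36.4 FPKM in the cKO libraries. Control replicate 1 stood above the other 7 libraries, and the coefficient of variation was 29.3% in the controls and 2.92% in the cKO libraries. The log2 fold change was -0.05 (SE 0.17, 95% interval -0.43 to 0.33, limma adjusted p = 0.942), and 0.14 without control replicate 1. *Inhba* (ENSMUSG00000041324, chromosome 13, 16011851 to 16031621, plus strand), the beta A subunit, had 0.239, 0.147, 0.130 and 0.306 FPKM in the controls and 0.331, 0.157, 0.139 and 0.230 FPKM in the cKO libraries. These values came from 13 to 41 fragments. Counting error alone gives exact 95% Poisson intervals of 0.0693 to 0.223 FPKM for the lowest library and 0.237 to 0.449 FPKM for the highest. In the wider fit the log2 fold change of *Inhba* was 0.04 (SE 0.29, 95% interval -0.60 to 0.68, limma adjusted p = 0.970).

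The balance of the subunits within a library does not depend on its scaling. The ratio of *Inha* to *Inhbb* was 4.39, 6.49, 5.81 and 5.66 in the controls and 5.47, 5.99, 6.36 and 6.49 in the cKO libraries. The log2 ratios of the groups differed by 0.13, cKO minus control (p = 0.457 in a two-sided exact permutation test), and by 0.02 without control replicate 1. The ratio of *Inhba* to *Inhbb* was 0.00429, 0.00416, 0.00423 and 0.00909 in the controls. It was 0.00945, 0.00421, 0.00373 and 0.00633 in the cKO libraries, a log2 difference of 0.09 (p = 0.771 in a two-sided exact permutation test). This difference was 0.06 with 1 FPKM added and 0.11 with 0.01 FPKM added. The beta B transcript was thus far above beta A in every library. *Inhbc* was at 0.0896 ± 0.0627 and 0.116 ± 0.0531 FPKM (SD, n = 4 each), and *Inhbe* was at 0 in some libraries and was not tested.

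The activin receptors and antagonists were measured alongside. *Acvr1b*, a type I activin receptor, was at 16.4 ± 0.937 and 16.3 ± 1.29 FPKM (SD, n = 4 each; log2 fold change -0.01, 95% interval -0.23 to 0.20). *Acvr2a* and *Acvr2b*, the type II receptors, had log2 fold changes of -0.12 and -0.01. *Tgfbr3*, the betaglycan that binds inhibin, was at 2.48 ± 1.06 and 3.26 ± 0.797 FPKM (log2 fold change 0.43, limma adjusted p = 0.591). *Fst*, which neutralises activin, was at 0.996 ± 0.123 and 1.24 ± 0.207 FPKM (log2 fold change 0.28, limma adjusted p = 0.606), and its relative *Fstl3* had a log2 fold change of -0.45 (limma adjusted p = 0.672).

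*Dhh* (ENSMUSG00000023000, chromosome 15, 98891152 to 98898540, minus strand) had 10.6, 12.8, 10.1 and 13.2 FPKM in the controls and 9.37, 12.0, 12.4 and 12.2 FPKM in the cKO libraries. cKO replicate 1 was lowest and the other 3 cKO libraries lay close together. The log2 fold change was -0.02 (SE 0.13, 95% interval -0.31 to 0.27, limma adjusted p = 0.970). Its receptor *Ptch1* was at 8.05 ± 1.60 and 8.32 ± 1.16 FPKM (SD, n = 4 each), with a log2 fold change of 0.06. *Gli1*, a transcriptional target of hedgehog signalling as *Ptch1* is, had 0.825, 1.73, 1.24 and 1.93 FPKM in the controls and 1.67, 1.91, 2.09 and 3.05 FPKM in the cKO libraries. Its log2 fold change was 0.60 (limma adjusted p = 0.450), with overlap. *Gas1*, a hedgehog co-receptor, was at 1.25 ± 0.157 and 1.88 ± 0.451 FPKM without overlap (log2 fold change 0.53, limma adjusted p = 0.344). *Hhip*, which binds and sequesters hedgehog ligands, had a log2 fold change of 0.05.

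The Leydig markers, whose cells receive the DHH signal, had a mean log2 level of 0.41 to 1.31 in the controls and 1.19 to 1.85 in the cKO libraries, with a summed level of 16.5 to 37.9 and 28.6 to 46.7 FPKM. Of the 6 markers 3 had an unadjusted p below 0.05, none was called and none was at 0 in a library. Relative to these markers the *Dhh* difference was -0.68, with overlap. It was -0.68 relative to mesenchyme, -0.23 to peritubular and -0.17 to Sertoli markers, also with overlap. Relative to macrophage (-0.60) and endothelial markers (-0.48) the groups did not overlap, with cKO lower. The same held for *Kitl* relative to Leydig and mesenchyme markers (both -0.50). It also held for *Fgf2* relative to mesenchyme markers (-0.66) and *Inhbb* relative to macrophage markers (-0.63). These cases were selected as those with cKO lower and no overlap among all comparisons of members with the somatic marker lists. Each relative value is the member's own difference minus that of the list. The own differences ran from -0.05 (*Inhbb*) to 0.16 (*Kitl*), and those of the lists from 0.46 (endothelial) to 0.66 (Leydig and mesenchyme). A gene without a difference would therefore also be lower relative to these lists. How many of all genes show such a separation, and its cause, was not tested. Of the other hedgehog ligands *Ihh* was at 0.505 ± 0.105 and 0.311 ± 0.0952 FPKM (SD, n = 4 each; log2 fold change -0.57, limma adjusted p = 0.435), and *Shh* was at 0 in some libraries and was not tested.

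Over the members, 0 of the 7 in the main fit were called by limma, where 0.0165% of all genes were. An unadjusted p below 0.05 was found for 2 of the 7 (*Csf1* and *Gdnf*), both higher in the cKO libraries. Of all genes 10.9% had such a p, and 5.89% had it with a higher level in the cKO libraries. In the wider fit the count was 3 of 10, with *Bmp4*, all higher, against 11.1% of all genes and 6.23% in that direction. By voom on the fragments recovered from the FPKM values 0 members were called and 2 had such a p, where 10.6% of all genes had it. The groups did not overlap for 1 of the 10 members, against 6.32% of all genes. The median log2 fold change was 0.16 over the 7 members, beside 0.01 over all genes of the main fit. It was 0.12 over the 10, beside 0.02 in the wider fit, and 8 of the 10 were above 0. The count in the main fit was 1 without any of control replicates 1, 2 or 3 or cKO replicates 1, 2, 3 or 4, and 3 without control replicate 4. Of all genes, 15.3% had such a p without control replicate 4, and 5.66% to 15.6% in the other fits that left out a library. *Gdnf* was the gene lost: in the 5 fits that omitted control replicate 1, control replicate 2 or a cKO replicate other than 4, its log2 fold change was 0.59 to 0.62 with an unadjusted p of 0.0513 to 0.0553, and it was lower, at 0.35 and 0.44, without control replicate 3 or cKO replicate 4. In the plot of differences the 95% intervals of the other 7 members covered 0.

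**Figure D2:**
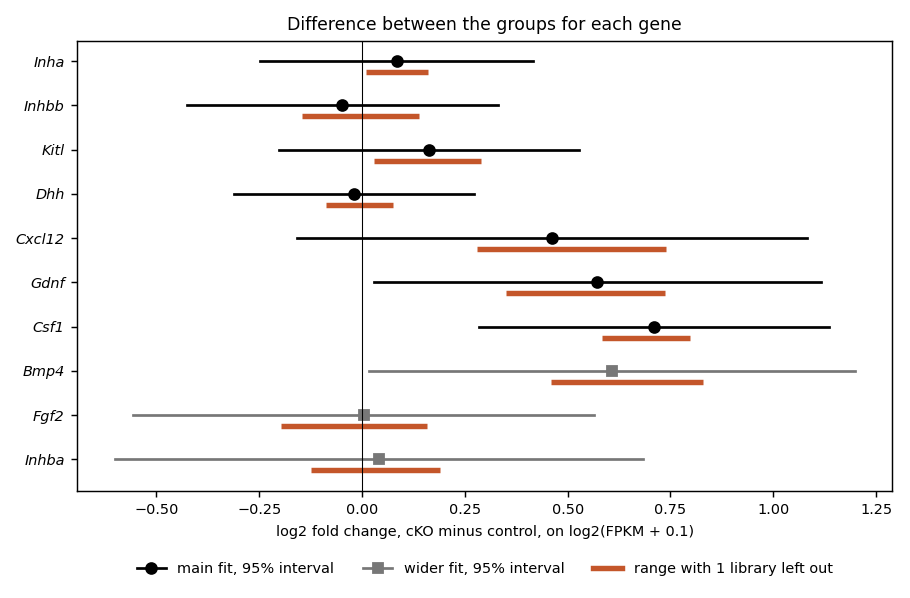
Log2 fold change (cKO minus control, on log2(FPKM + 0.1)) of each gene with its 95% interval, black circles for the main fit and grey squares for the wider fit. The orange bars give the range over the 8 fits that each left out 1 library; for *Csf1* they run from 0.58 to 0.80, while for *Inhbb*, *Dhh*, *Fgf2* and *Inhba* they cross 0.

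The signalling partners were taken as 4 lists of receptors, antagonists, effectors or targets, and related ligands, with 67 genes in all. Of these 62 were tested in the wider fit and 0 were called by limma (smallest adjusted p = 0.219, for *Etv5*). An unadjusted p below 0.05 was found for 12, or 19.4%, of which 10 were higher and 2 lower in the cKO libraries. Of all genes 11.1% had such a p and 6.23% had it with a higher level in the cKO libraries. The groups did not overlap for 7 partners, all higher in the cKO libraries, where 6.32% of all genes had groups that did not overlap. The median log2 fold change was 0.13 over the partners, beside 0.02 over all genes, and 45 of the 62 were above 0.

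By list, and beside the 11.1% of all genes, 4 of 24 receptors had such a p: *Fgfr4*, *Csf1r* and *Gas1* were higher and *Ackr3* lower. Of 11 antagonists 1 did, *Spry4*. Of 16 effectors or targets 5 did, all higher in the cKO libraries, namely *Etv5*, *Id3*, *Lhx1*, *Etv4* and *Gli1*. Of 11 related ligands 2 did, *Bmp7* higher and *Ihh* lower. The most abundant effectors were *Smad4*, with a mean of 26.9 FPKM over the 8 libraries, and *Smad2*, with 20.4 FPKM. These transducers of BMP and activin signals had log2 fold changes of -0.17 and -0.05. Among the antagonists *Smad7*, an inhibitory SMAD, had a log2 fold change of -0.07. The count of 12 was 5 without cKO replicate 4, and 7 without control replicate 3 or cKO replicate 3. The share of all genes also fell in those fits, to 6.22%, 7.46% and 7.38% in that order. The partner count was also 7 when the mean of the Sertoli markers was subtracted from each library, which put the median of all genes at -0.13. With that subtraction 10.3% of all genes had such a p.

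**Figure D3:**
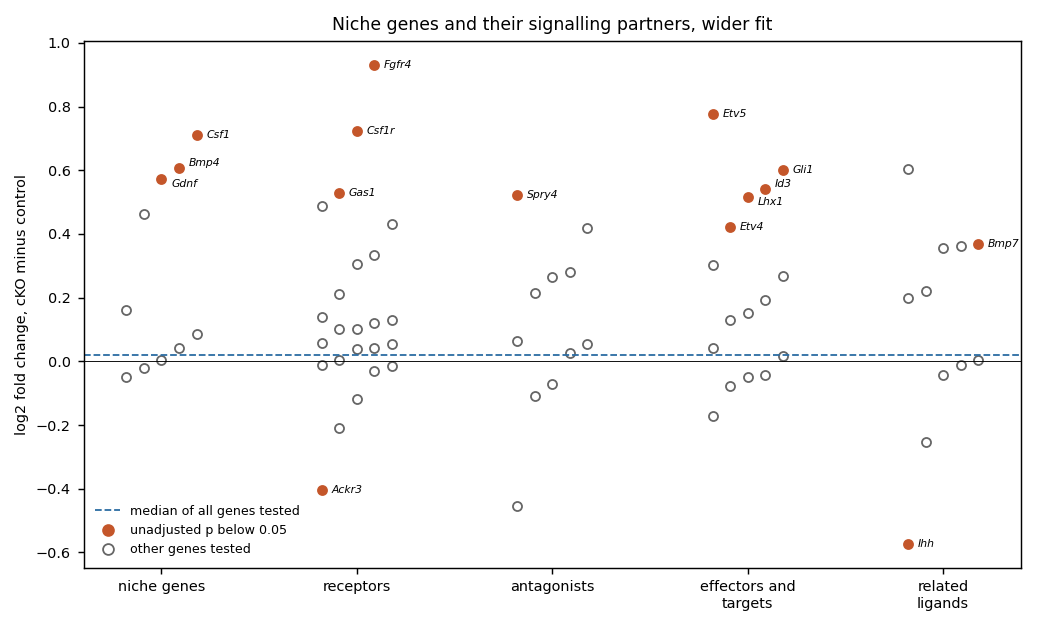
Log2 fold change (cKO minus control) of the 10 niche genes and of 62 signalling partners in 4 lists, from the wider fit, with 1 circle per gene. Filled circles have an unadjusted p below 0.05 and are named, open circles do not, and the dashed line is the median of all genes tested (0.02). No gene shown passed the adjusted threshold, and 45 of the 62 partners lie above 0.

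**Figure D4:**
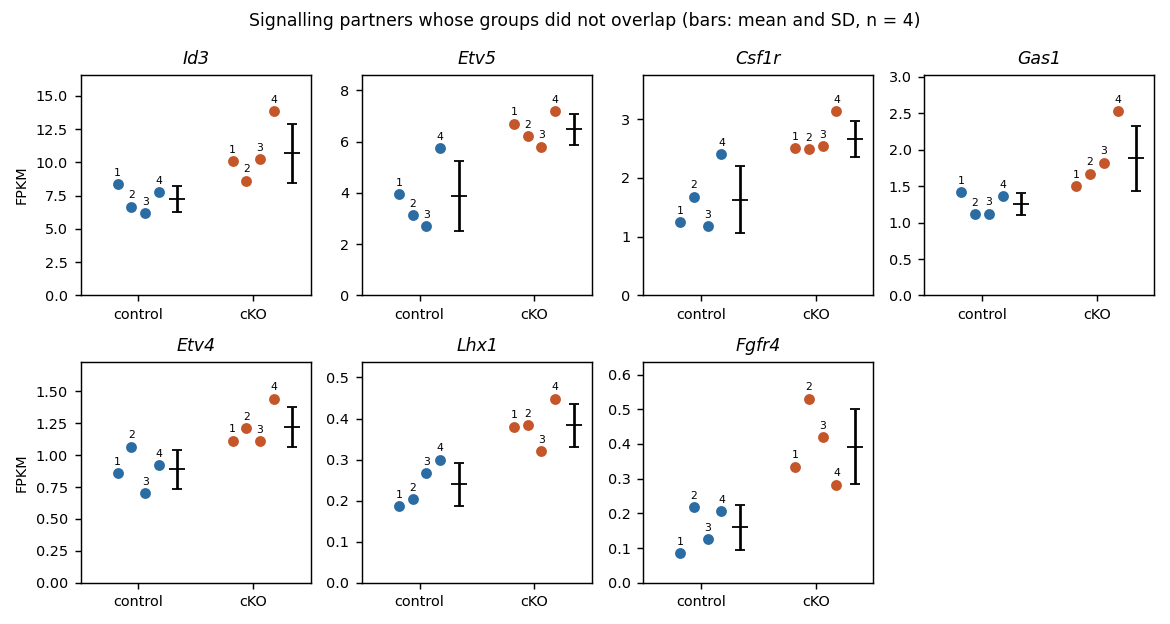
FPKM of the 7 signalling partners whose groups did not overlap, by library (points with replicate numbers), with the mean and SD of 4 libraries beside each group. They were selected for this separation; the gap is narrowest for *Etv5*, between control replicate 4 (5.76 FPKM) and cKO replicate 3 (5.80 FPKM).

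The members were also described by how they varied over the 8 libraries. Control replicate 3 held the lowest value of 7 of the 10 members, and cKO replicate 4 the highest of 5 (*Cxcl12*, *Gdnf*, *Csf1*, *Bmp4* and *Fgf2*). The same 2 libraries stood at the low and high ends of the mesenchyme, endothelial and Sertoli markers. Mean log2 levels in control replicate 3 and cKO replicate 4 were 2.47 and 3.94 for mesenchyme markers. They were 0.46 and 1.48 for endothelial markers and 6.17 and 6.65 for Sertoli markers. Over all libraries the mesenchyme markers ranged from 2.47 to 3.40 in the controls and from 3.27 to 3.94 in the cKO libraries. Their summed levels were 42.5 to 100.2 and 73.3 to 111.2 FPKM. Of the 5 mesenchyme markers 3 had an unadjusted p below 0.05 and none was at 0. The endothelial markers ranged from 0.46 to 1.27 and from 1.19 to 1.48, with 2 of 6 at such a p. The peritubular markers ranged from 1.51 to 1.99 and from 1.90 to 2.35, with 1 of 5. The part of these cell types in the members' values was not tested.

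**Figure D5:**
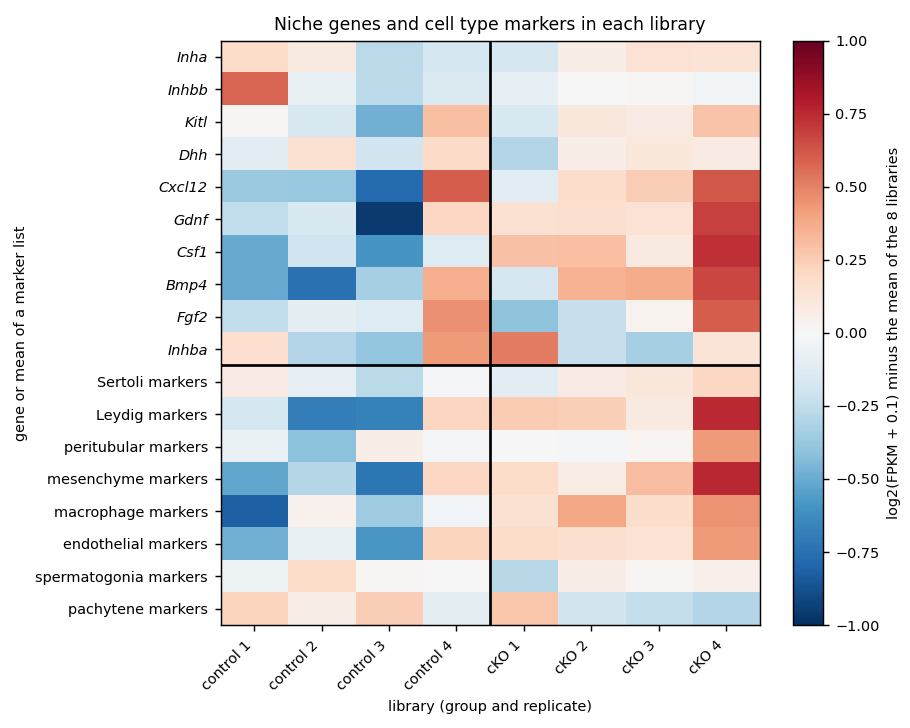
Deviation of each niche gene (upper rows) and of the mean of each marker list (lower rows) from its own mean over 8 libraries, in log2(FPKM + 0.1), with 1 column per library. Blue is below and red above the mean; control replicate 3 is blue and cKO replicate 4 red for *Cxcl12*, *Gdnf*, *Csf1* and the Leydig, mesenchyme, macrophage and endothelial markers.

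The Pearson correlations between the members over the 8 libraries, which share library and scaling, had a median of 0.42 over 45 pairs, and 38 were above 0. The highest was that of *Kitl* with *Cxcl12* (0.93). *Cxcl12* with *Gdnf* (0.90), *Gdnf* with *Csf1* (0.88) and *Cxcl12* with *Bmp4* (0.87) followed. The lowest was that of *Inhbb* with *Fgf2* (-0.24). *Inha* and *Inhbb* correlated at 0.68.

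Against the mean of the Sertoli markers, *Kitl* had r = 0.84 (exact permutation p = 0.00960, Benjamini-Hochberg adjusted over the 10 members 0.0635, Spearman's rho 0.71 with exact permutation p = 0.0576). *Inha* had r = 0.81 (exact permutation p = 0.0153, adjusted 0.0635, rho 0.69 with exact permutation p = 0.0694). *Gdnf* had r = 0.80 (exact permutation p = 0.0190, adjusted 0.0635, rho 0.57 with exact permutation p = 0.151). None of the 10 had an adjusted p below 0.05, and 4 had an unadjusted p below it, the fourth being *Cxcl12* (r = 0.73, exact permutation p = 0.0406). Of the genes of the main fit, 1.89% had an r at least as high as *Kitl*, 3.18% as *Inha*, 3.33% as *Gdnf* and 6.56% as *Cxcl12*. Without the 2 libraries farthest from the median, cKO replicate 4 and control replicate 3, r was 0.49 for *Kitl*, 0.66 for *Inha* and -0.01 for *Gdnf*. These 2 libraries were the lowest and highest of the marker mean, so leaving them out also narrows its range. The fall for *Gdnf* therefore cannot show what its relation rested on. Without control replicate 1, 5 members had an adjusted p below 0.05, and without control replicate 4, 3 did. *Inhba* had the lowest correlation, r = 0.13. The Sertoli markers had no gene at an unadjusted p below 0.05 (0 of 8), with mean log2 levels of 6.17 to 6.52 in the controls and 6.33 to 6.65 in the cKO libraries.

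For each member of the main fit, the genes with the most similar pattern over the 8 libraries were found by Pearson's r. They were *Uck1* and *Pja1* for *Inha* (both 0.97), *Btg3* and *Fkbp5* for *Inhbb* (both 0.99), *Ncoa7* (0.98) and *Plod2* (0.97) for *Kitl*, and *Agmo* (0.97) and *Setd7* (0.96) for *Dhh*. For *Cxcl12* they were *Rap2c* and *Vegfa* (both 0.99), for *Gdnf* *Clec3b* and *Scamp5* (both 0.98), and for *Csf1* *1700025G04Rik* and *Spsb1* (both 0.98). With 12141 genes and 8 libraries, values of this size describe the ranking only.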

How the data were processed

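RNA from whole testes of 8 mice, 4 per group and 1 library each, was sequenced. The authors deposited FPKM values for 54532 genes with the gene length in bases, on GRCm38/mm10 per the submitters' processing notes. Their own DE test, on counts, was not repeated here. The aligner, counter and use of strand are not given in the sources used here, so antisense overlap cannot be resolved. The paper dates tamoxifen slightly earlier than the labels and names Trizol where the labels name a column kit. FPKM times length gave whole fragments for 100% of values (tolerance 0.02). Member coordinates were the same in GENCODE vM21 (10 of 10).

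Tests were limma 3.58.1 (R 4.3.3, eBayes with trend) on log2(FPKM + 0.1) without covariates, and two-sided exact permutation tests (numpy 2.4.6). The permutation tests took the 70 assignments for group differences and the 40320 pairings of 8 libraries for correlations. Ranks and Poisson intervals came from scipy 1.17.1. The paper's filter and thresholds were used, since the unit is FPKM and not counts. The limma p-values set a group difference against the spread between these mice, estimated with information from all genes tested. The exact permutation p-values place the observed value among the rearrangements of the libraries. The procedure was tested on simulated data. Between same-numbered libraries, the deviations of genes from their group mean correlated at 0.0757 to 0.406, above 0.1 in 3 of 4 pairs. Between libraries of different number they correlated at -0.474 to 0.162. Since the labels tie no number to a litter and 1 pair fell short, the numbers were not taken as pairs. Members and lists were chosen with earlier results of these data known. Named were all members and, per partner list, the 3 genes with the smallest p, the 2 most abundant and each member's own receptors or antagonists. The 2 genes most correlated with each member were named too. Some partner genes that this rule names are counted but not reported here. Other partners, and those whose groups did not overlap, were named after their values were seen. Alternatives covered pseudocounts, filters, scalings, a replicate block, array weights, voom and each library left out. The comparison of members with marker lists was added after seeing the data. Promoters were RefSeq windows of GRCm38.p6 for 10 of 10 members.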

Additional observations from a re-analysis of the deposited data

Results flagged for a closer look

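In 3 of the 24 groups of 4 libraries examined, 1 library stood far from the other 3 by Dixon's criterion, where chance gives about 1 in 20. *Dhh* was lowest in cKO replicate 1, at 9.37 FPKM, with the other cKO libraries at 12.0 to 12.4 FPKM. *Gdnf* was highest in cKO replicate 4, at 3.57 FPKM, with the others at 2.42 to 2.45 FPKM. The ratio of *Inhba* to *Inhbb* was highest in control replicate 4, at 0.00909, with the other controls at 0.00416 to 0.00429.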

How the results depend on the processing

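No member was called under any of 22 alternatives, and the log2 fold changes of *Csf1* (0.45 to 0.82, limma adjusted p from 0.127 to 0.706), *Gdnf*, *Bmp4*, *Cxcl12* and *Kitl* stayed above 0 in all alternatives that tested them. The number of members at an unadjusted p below 0.05 was 0 with a filter of 5 FPKM, which removes the low members, 1 with all biotypes, 1 after subtracting the Sertoli marker mean (which put the median of all genes at -0.14), 4 with array weights and 1 to 3 with a library left out. In the wider fit, where it was 3, it was 0, 1 and 1 under the first 3 of these and 1 to 4 with a library left out. The partner count of 12 was 2, 6 and 7 under the same 3, 7 after rescaling to TPM and 5 to 14 with a library left out. The share of all genes with such a p moved as well. In the main fit it was 10.9%, and 8.93%, 9.76% and 10.4% under the same 3. There it was 20.9% with array weights and 5.66% to 15.6% with a library left out. In the wider fit it was 11.1%, and 8.93%, 9.30% and 10.3% under the same 3. Rescaling to TPM gave 10.3% there, and leaving a library out 6.22% to 15.4%. The members correlated with the Sertoli markers numbered 0 to 5 with a library left out.

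With the replicate block, the members at an unadjusted p below 0.05 numbered 3, the added one being *Cxcl12* (unadjusted p = 0.0397), and 4 in the wider fit, the partners 17 and the called members 0. Over all genes the block took the calls from 2 to 0. It took the share of all genes at such a p from 10.9% to 14.6%, and from 11.1% to 14.5% in the wider fit. For 5 of 8 libraries, the deviations from the group mean correlated best with those of the library with the same number. The block ended no call on a member.

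Values near 0 changed sign. *Inha* was -0.065 and *Inhba* -0.11 after the Sertoli subtraction, and *Fgf2* was then -0.15. That subtraction lowers every gene by the 0.15 by which the Sertoli markers differed. *Inhbb* was 0.030 and *Dhh* 0.059 after rescaling to TPM, and 0.10 and 0.028 with array weights. Rescaling to TPM put the median of all genes at 0.088 in the main fit, where it had been 0.01. *Fgf2* was -0.00079 after median centring and -0.012 with voom. Without both replicates 4, an alternative added after seeing the data, *Dhh* was 0.012 and *Fgf2* -0.044. With 1 library left out, *Inhba* ran from -0.12 to 0.19, *Inhbb* from -0.15 to 0.14, *Dhh* from -0.087 to 0.075, *Fgf2* from -0.20 to 0.16 and the log2 ratio of *Inhba* to *Inhbb* from -0.095 to 0.29. Beyond the shifts of all genes by the Sertoli subtraction and the TPM rescaling, the cause of these moves was not tested. Depth limits *Inhba* and *Bmp4* most.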
